A study of Mus musculus with 4 samples.

Results

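The genes described here were the keratins, the small proline-rich (Sprr) genes and the desmosomal cadherins of the desmoglein (Dsg) and desmocollin (Dsc) families. Members were chosen by symbol: Krt followed by a number (keratin-associated Krtap genes were not included), or Sprr, Dsg or Dsc followed by a number. The RefSeq gene table held 80 such genes, and 76 of them had a probe on the array among 20832 named genes. Krt83, Sprr2a1, Sprr2a3 and Sprr2c-ps had no named probe. Of the 76 members, 41 were well above background on at least 2 of the 4 arrays and were tested. The other 35 were not tested, 31 of them because they were well above background on no array. Of all 20832 named genes, 15817 were tested and 4324 were well above background on no array. By class, 5 of 5 simple keratins were tested, against 15 of 19 squamous keratins, 4 of 6 other keratins, 9 of 23 hair and inner root sheath keratins, 5 of 14 Sprr genes and 3 of 9 desmosomal cadherins.

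The study compared STAP-2-/- with wild-type (WT) colons in a mouse model of colitis, with 2 arrays per genotype. All animals were C57BL/6J mice aged 14 weeks given 1.75% dextran sulfate sodium (DSS) in their drinking water, which damages the lining of the colon. One label field gives 7 days of DSS and another gives 3 days, and no group without DSS was analysed here. Each array held RNA of whole colons pooled from 3 mice, and the labels name pools of the same genotype as biological replicates. The p-values of the genotype comparison therefore measure only the spread between these pools. STAP-2 is a signal-transducing adaptor protein, and the labels do not say how its gene was disrupted or name a cell type for the deletion. The pools are called pool 1 and pool 2 after the number in the labels, which do not say that arrays with the same number share a litter, a day or a batch. In the comparison of pool 1 with pool 2, each side held a WT and a STAP-2-/- array, with no genotype term. The standard errors and p-values for pool therefore measure the spread between genotypes within a number, not between replicates.

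Keratins are the intermediate filament proteins of epithelial cells, built from pairs of a type I and a type II chain. Single-layered epithelia such as the colonic lining use the simple keratins, whereas stratified squamous epithelia such as skin, oesophagus and the anal canal use the squamous keratins and join their cells by desmosomes. Sprr proteins are cross-linked into the cornified envelope of squamous cells, and some Sprr genes are also known to be active in the intestine.

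Levels are log2 values of the processed probe signal relative to the 75th percentile of the same array, so that 0 is the 75th percentile. That percentile was 2280.0 and 2348.2 signal units in STAP-2-/- 1 and 2, and 2134.3 and 2214.6 in WT 1 and 2, and 68.4 to 70.5% of spots were well above background. The 4 arrays shared 1 slide and 1 scan. STAP-2-/- 1 and 2 lay at positions 2 and 4, and WT 1 and 2 at positions 1 and 3, so that the pool number and the position on the slide cannot be told apart. The targeted gene Stap2, on chromosome 17, was not well above background in either STAP-2-/- pool and stood at 2.92 and 2.98 in the WT pools, at least 722-fold lower in STAP-2-/- colons (limma adjusted p = 0.39). In whole-colon RNA, fewer cells of a type and less RNA per cell cannot be told apart.

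Across all 15817 tested genes, the genotype comparison called 0 genes at an adjusted p under 0.05 (limma, Benjamini-Hochberg), which is 0.0%, and 317 genes (2.0%) at an unadjusted p under 0.05. The comparison of pool 1 with pool 2 called 4 genes (0.0253%) at the adjusted threshold and 3989 (25.2%) at the unadjusted one. Among the 41 tested members, neither comparison called any gene at the adjusted threshold. At the unadjusted threshold, 1 member (2.44%) passed for genotype and 16 (39.0%) passed for pool.

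The simple keratins, the keratins of the colonic lining, were well above background on every array and differed little between genotypes. Krt8, the type II chain of the main simple keratin pair, stood at 6.65 and 6.08 in STAP-2-/- 1 and 2, and at 6.45 and 5.88 in WT 1 and 2. Both genotypes had the higher value in pool 1, and the genotypes overlapped. Krt8 differed by 0.21 between STAP-2-/- and WT colons (SE 0.32, 95% interval -0.69 to 1.103, adjusted p = 1.0) and by 0.57 between pool 1 and pool 2 (SE 0.14, unadjusted p = 0.0135, adjusted p = 0.138). Krt18, the type I partner of Krt8, stood at 6.55 and 6.54 in STAP-2-/- 1 and 2, and at 6.74 and 6.69 in WT 1 and 2. Its genotypes did not overlap, with a difference of -0.17 (SE 0.13, 95% interval -0.52 to 0.19, adjusted p = 1.0). Between pools Krt18 differed by 0.03 (SE 0.13, 95% interval -0.31 to 0.37), a smaller pool difference than that of its partner Krt8, although the gap between the 2 genes was not tested.

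Krt19, a type I simple keratin, stood at 7.12 and 6.98 in STAP-2-/- 1 and 2, and at 7.08 and 6.93 in WT 1 and 2. The genotypes overlapped, with a difference of 0.04 (95% interval -0.36 to 0.45). Krt20, a keratin of the differentiated surface cells of the intestine, stood at 6.22 and 6.33 in STAP-2-/- 1 and 2, and at 6.53 and 6.23 in WT 1 and 2. Its genotype difference was -0.10 (95% interval -0.58 to 0.37), again with overlap. Krt7, a type II keratin of ducts and of some glandular epithelia, stood at 2.07 and 2.54 in STAP-2-/- 1 and 2, and at 1.99 and 2.17 in WT 1 and 2. It was the only simple keratin with lower values in pool 1 in both genotypes (-0.33, SE 0.16, adjusted p = 0.284). Over the 5 simple keratins the median genotype difference was 0.04 and the median pool difference 0.09, beside -0.0077 and 0.04 over all tested genes. With intervals as wide as that of Krt8, a 2-fold difference between genotypes lay inside the interval of that gene, so these data do not show that the genotypes were alike.

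The upstream sequences of Krt8 and Krt18 are shown because their products pair in one filament and the 2 genes had the pool differences given above. Each is the 250 bases before the annotated start, from RefSeq on GRCm38.p6, read 5′ to 3′ on the strand of the gene, at chr15:102004343-102004592 (minus strand) for Krt8 and chr15:102027966-102028215 (plus strand) for Krt18. Capitals would mark a TATA box (TATAAA), an AP-1 site (TGANTCA), a STAT site (TTCNNNGAA) or a CCAAT box, each searched on both strands, and neither window held a match.
Krt8: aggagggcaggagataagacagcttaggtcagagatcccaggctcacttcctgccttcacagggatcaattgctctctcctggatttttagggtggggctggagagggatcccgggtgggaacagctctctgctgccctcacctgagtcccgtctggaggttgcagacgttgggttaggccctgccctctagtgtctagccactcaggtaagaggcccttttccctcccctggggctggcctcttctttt
Krt18: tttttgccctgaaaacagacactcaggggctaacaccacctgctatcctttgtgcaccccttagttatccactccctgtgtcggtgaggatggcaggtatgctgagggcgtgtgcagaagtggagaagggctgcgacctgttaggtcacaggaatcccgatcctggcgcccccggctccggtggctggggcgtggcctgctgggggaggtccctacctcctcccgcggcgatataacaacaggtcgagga

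The label of a stratified epithelium was checked against its defining genes. Krt1 and Krt4, keratins of the layers above the basal layer, were well above background on no array, nor were Krt76 and Krt77. Their usual partners were detected: Krt10, the partner of Krt1, was above background on all arrays with both of its probes, at 0.05 and -0.03 in STAP-2-/- 1 and 2, and at -0.03 and 0.04 in WT 1 and 2, and Krt13, the partner of Krt4, was above background on all arrays with 1 of 2 probes. Krt16 and Dsg1c were above background on all arrays too. The desmosomal cadherins typical of stratified epithelium were also not above background on any array (Dsg1a, Dsg1b, Dsg3, Dsc1, Dsc3), nor was Dsg4. Of the basal pair, Krt14 was above background on all arrays at -2.90 and -3.34 in STAP-2-/- 1 and 2, and at -3.11 and -3.32 in WT 1 and 2. Its partner Krt5 lay between -5.35 and -4.84, and its second probe was above background on no array. The same held for second probes of Krt2, Krt6b, Krt13 and Krt222, so that the detection of these 5 genes rests on 1 of 2 probes each. Involucrin (Ivl), a precursor of the cornified envelope, and Col17a1, a hemidesmosome collagen, were above background on no array, whereas Trp63, the transcription factor of basal cells, was at 1.37 and 1.07 in STAP-2-/- 1 and 2 and at 1.39 and 0.93 in WT 1 and 2. Of 39 other stratified epithelium genes with a probe, 26 were above background on all 4 arrays and 8 were above it on none. Among the 26 were Lor (loricrin), Pkp1 (plakophilin), Ppl (periplakin) and Evpl (envoplakin). Of all 20832 named genes, 15145 were above background on all 4 arrays and 4324 on none, so these counts do not set the list apart. With defining genes both present and absent, the set is described by its families rather than as one tissue.

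The 15 tested squamous keratins had a median genotype difference of 0.05, with 10 members above 0 and 5 below. A single one of the 15 (6.67%), Krt17, passed an unadjusted p under 0.05, beside 2.0% of all tested genes. It was also the only one with genotypes that did not overlap, beside 24.6% of all tested genes. Krt17, a keratin of hair follicles and of wounded or inflamed epidermis, stood at -2.03 and -1.74 in STAP-2-/- 1 and 2, and at -1.01 and -1.27 in WT 1 and 2. Both STAP-2-/- pools lay below both WT pools. The difference was -0.75 (SE 0.19, 95% interval -1.28 to -0.22, unadjusted p = 0.0177), a 1.68-fold lower signal in STAP-2-/- colons, and the adjusted p over all genes was 1.0. Within pool 1 the difference was -1.03, and within pool 2 it was -0.48. Krt16, another keratin known from wounded epidermis, differed by 0.17 (SE 0.21) with overlap. Krt6a, also known from wounded epidermis, was at background on 1 array of each genotype, so no genotype difference is given.

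Most squamous keratins had higher values in pool 1. Of the 15, 12 had pools that did not overlap, 11 of them higher in pool 1 and 1 lower. The median pool difference was 0.31, beside 0.04 over all tested genes. It was smaller after normexp background correction and quantile scaling, as given below. Over all tested genes, 62.5% had pools that did not overlap and 35.9% were higher in pool 1 without overlap. Krt13, a keratin of the layers above the basal layer in non-cornified squamous epithelium, stood at 1.07 and 0.45 in STAP-2-/- 1 and 2, and at 0.95 and 0.37 in WT 1 and 2. Both pool 1 arrays were above both pool 2 arrays, by 0.60 (SE 0.11, unadjusted p = 0.00437, adjusted p = 0.11). Krt2, an epidermal keratin, showed a pool difference of 0.71 (SE 0.11, adjusted p = 0.0998), the smallest adjusted p among the members.

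Krt42, a type I keratin known in the mouse from the nail, stood at 4.91 and 4.29 in STAP-2-/- 1 and 2, and at 4.72 and 4.31 in WT 1 and 2. The pool difference was 0.52 (SE 0.12, adjusted p = 0.13), and the genotype difference was 0.09 (SE 0.30). Krt15, a basal cell keratin, and Krt79, known in the mouse from the hair follicle opening, had pool differences of 0.41 (SE 0.10) and 0.62 (SE 0.12). Krt78, a type II keratin, stood at -3.42 and -5.70 in STAP-2-/- 1 and 2, and at -4.70 and -5.85 in WT 1 and 2. STAP-2-/- 1 was highest and both pool 2 arrays were lowest, a pool difference of 1.71 (SE 0.45, 3.27-fold, unadjusted p = 0.0171, adjusted p = 0.146). Without STAP-2-/- 1 the pool difference of this probe was 1.07. The second probe of Krt78 was above background on 2 arrays only. It stood at -4.05 and -7.12 in STAP-2-/- 1 and 2, and at -5.00 and -7.03 in WT 1 and 2. Its pool 2 signals were at background, so no size of its pool difference is given. Krt6a ran the other way: it was above background on the pool 2 arrays alone, at -5.74 and -5.56 in STAP-2-/- and WT, so that only a bound can be given, at least 1.49-fold lower in pool 1 (adjusted p = 0.191). The probes of Krt6a and Krt6b may share signal, since these are close copies.

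**Figure D1:**
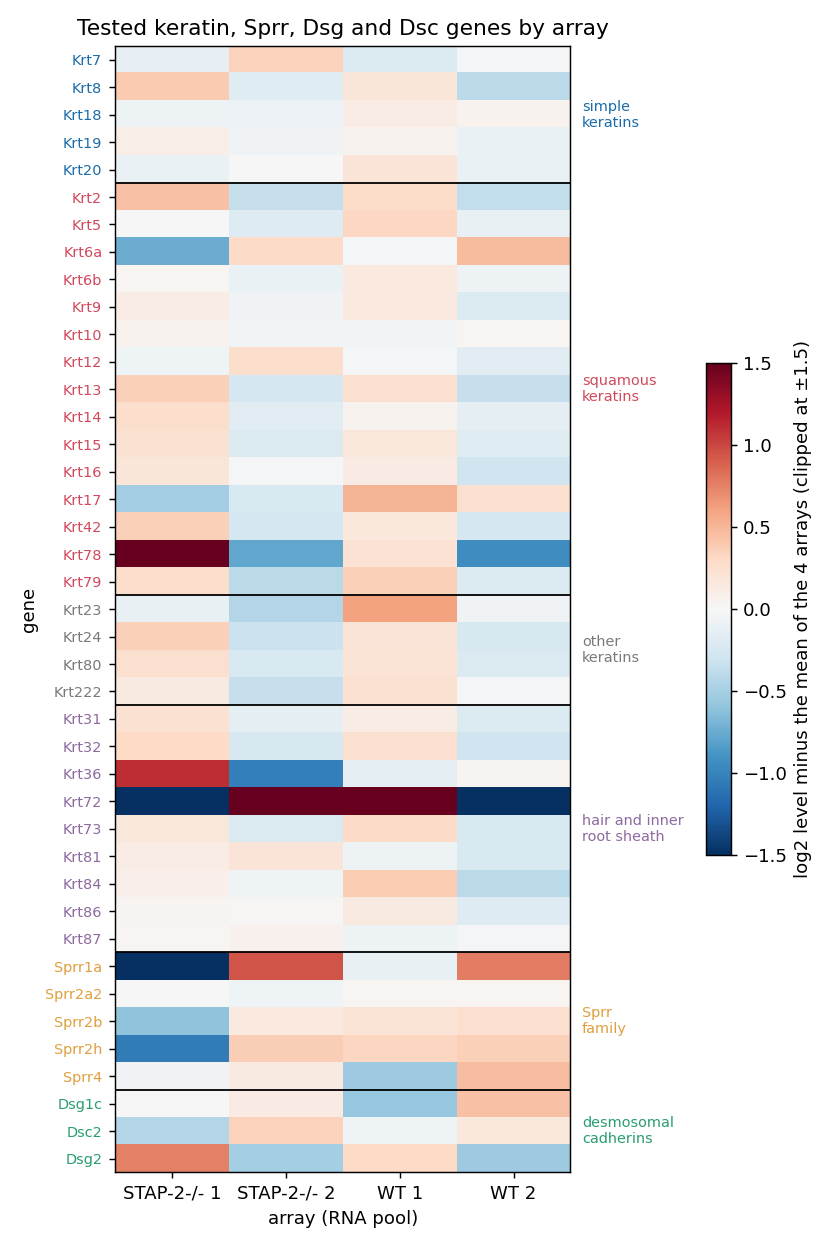
Each row is 1 of the 41 tested members and each column 1 array. Colour gives the log2 level minus the gene's mean over the 4 arrays (red higher, blue lower, clipped at 1.5), and labels on the right give the class. Most squamous keratins are red in STAP-2-/- 1 and WT 1 and blue in STAP-2-/- 2 and WT 2, Krt17 is blue in both STAP-2-/- pools, and Krt72 is high in STAP-2-/- 2 and WT 1 alone.

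Genes were not level between the pools, at either end of the signal range. The 31 members above background on no array had a median pool difference of 0.35, with 25 of 31 higher in pool 1, and the 4324 named genes above background on no array had 0.35 with 85.2% higher in pool 1. Among tested genes with a mean level below -4 the median pool difference was 0.12, and from -4 to -2 it was 0.0036. Tested members in those 2 ranges had medians of 0.18 (16 members) and 0.45 (7 members). Krt2, Krt15, Krt24, Krt78 and Krt80 lie in the lowest range and Krt79 in the next. The part of the background in their pool differences was not tested. For genes with a mean level from 2 to 4 the median pool difference was 0.0724, with 62.0% higher in pool 1, and from 4 upwards it was 0.10, with 67.3% higher. Tested members had medians of 0.02 from 2 to 4 (2 members) and 0.12 from 4 upwards (6 members). Krt42, in that highest range, had a pool difference of 0.52, and Krt13, in the range from 0 to 2 where the median was 0.03, had 0.60. The 6 members from 0 to 2 had a median of 0.25. From -2 to 0 the median was -0.0059 over all tested genes and 0.17 over 4 members.

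Among the 4 other keratins that were tested, Krt23, a type I keratin, stood at 1.22 and 0.89 in STAP-2-/- 1 and 2, and at 1.94 and 1.28 in WT 1 and 2. Both STAP-2-/- pools lay below both WT pools, by -0.55 (SE 0.30, adjusted p = 1.0). Krt24, Krt80 and Krt222 had pool differences of 0.56 (SE 0.12), 0.44 (SE 0.10) and 0.37 (SE 0.15), each higher in pool 1 without overlap.

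Hair and inner root sheath keratins, which build the hair shaft and its surrounding sheath, were detected in part: 11 of 23 were above background on no array, and 8 were above it on all 4. The 9 tested members had a median genotype difference of 0.08 and a median pool difference of 0.34. Krt81, a hair shaft keratin, stood at -0.37 and -0.29 in STAP-2-/- 1 and 2, and at -0.56 and -0.72 in WT 1 and 2, so that both STAP-2-/- pools lay above both WT pools, by 0.31 (SE 0.14, adjusted p = 1.0). Its near copies Krt86 and Krt87 had genotype differences of 0.05 and 0.09, and the array cannot be assumed to separate these genes. Krt36, a hair shaft keratin, stood at -1.83 and -3.96 in STAP-2-/- 1 and 2, and at -3.07 and -2.89 in WT 1 and 2. The STAP-2-/- pools enclosed the WT pools, with a genotype difference of 0.08 (SE 0.78). Krt31, Krt32 and Krt73 had pool differences of 0.34, 0.53 and 0.45, and Krt84 had 0.46, all higher in pool 1 without overlap. Pools did not overlap in 5 of the 9 tested members (55.6%), beside 62.5% of all tested genes.

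**Figure D2:**
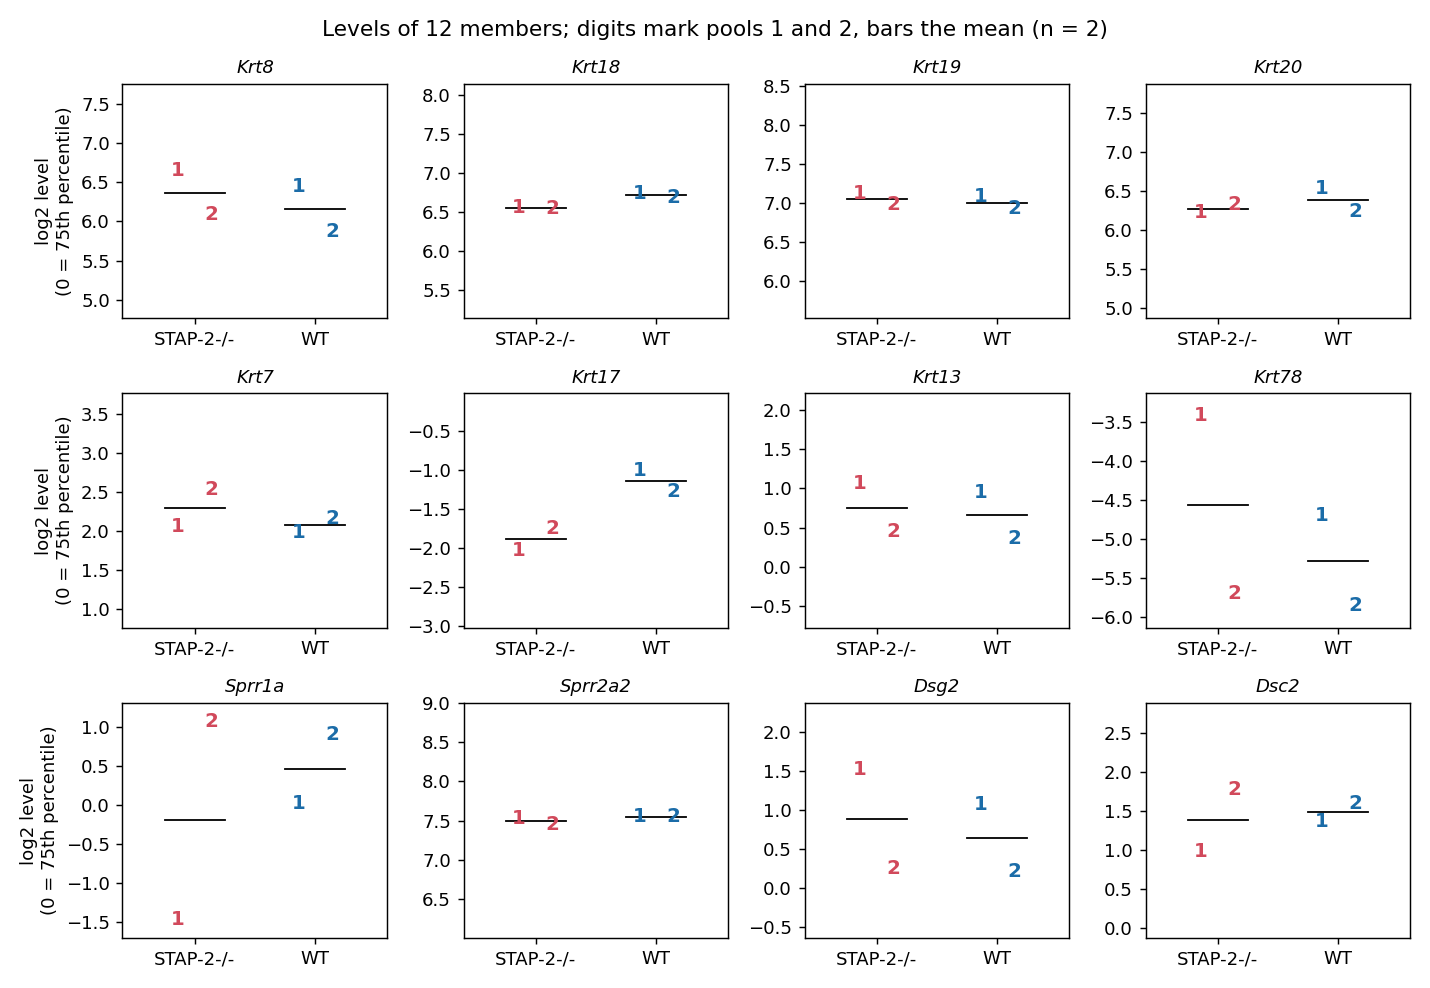
Log2 levels (0 is the 75th percentile of the array) of 12 members, with the digits 1 and 2 marking the pools, STAP-2-/- in red on the left, WT in blue on the right, and a bar at the mean of the 2 pools. All panels span 3 log2 units. The 4 values of Krt18, Krt19 and Sprr2a2 lie close together, Krt17 is lower in both STAP-2-/- pools, and Sprr1a is lowest in STAP-2-/- 1.

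The Sprr genes ranged from Sprr2a2, nearly level over the 4 arrays on its brightest probe, to Sprr1a, which varied widely between the STAP-2-/- pools. Sprr2a2, an Sprr2 gene known to be active in the intestine, stood at 7.53 and 7.45 in STAP-2-/- 1 and 2, and at 7.55 and 7.55 in WT 1 and 2. The genotype difference was -0.06 (SE 0.13, 95% interval -0.42 to 0.30, adjusted p = 1.0), and the pool difference was 0.04 (SE 0.10). Its other 2 probes gave genotype differences of -0.03 and 0.04, and pool differences of 0.21 and -0.29, which ran in opposite directions. The array cannot be assumed to separate Sprr2a2 from Sprr2a1 and Sprr2a3, which had no named probe. Sprr1a, a cornified envelope precursor, stood at -1.47 and 1.08 in STAP-2-/- 1 and 2, and at 0.02 and 0.90 in WT 1 and 2. STAP-2-/- 1 was lowest and both pool 2 arrays were highest. The pool difference was -1.71 (SE 0.52, 3.28-fold lower in pool 1, unadjusted p = 0.0277, adjusted p = 0.163), and the genotype difference was -0.66 (SE 0.98, 95% interval -3.44 to 2.13). Without STAP-2-/- 1 the pool difference was -0.97 and the genotype difference 0.62.

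Sprr2b stood at -4.95 and -4.20 in STAP-2-/- 1 and 2, and at -4.14 and -4.10 in WT 1 and 2. Sprr2h stood at -6.02 and -4.60 in STAP-2-/- 1 and 2, and at -4.66 and -4.63 in WT 1 and 2. In both genes STAP-2-/- 1 stood below the other 3 arrays, which were close to each other. Sprr4 had a pool difference of -0.60 (SE 0.22, adjusted p = 0.203). Over the 5 tested Sprr genes the median genotype difference was -0.45 and the median pool difference -0.60, and without STAP-2-/- 1 these were 0.04 and -0.045. Sprr2d, Sprr2e, Sprr2f, Sprr2g, Sprr2i, Sprr2k, Sprr2j-ps, Sprr1b and Sprr3 were above background on no array.

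The Sprr upstream sequences are shown because genes with the same motif letters differed in whether they were detected. Windows are the 250 bases before the annotated start from RefSeq on GRCm38.p6, 5′ to 3′ on the strand of the gene: Sprr1a at chr3:92485882-92486131 (minus), Sprr2a2 at chr3:92250397-92250646 (plus), Sprr2b at chr3:92316455-92316704 (plus), Sprr2h at chr3:92385435-92385684 (plus) and Sprr2d at chr3:92338890-92339139 (plus). Capitals mark the same 4 motifs as above. In Sprr2d the TATA box overlaps a CCAAT box on the opposite strand.
Sprr1a: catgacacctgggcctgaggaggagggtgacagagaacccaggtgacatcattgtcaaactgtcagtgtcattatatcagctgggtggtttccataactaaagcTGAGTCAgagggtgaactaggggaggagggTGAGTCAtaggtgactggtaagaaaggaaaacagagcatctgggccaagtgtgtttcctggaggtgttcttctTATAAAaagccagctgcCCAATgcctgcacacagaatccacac
Sprr2a2: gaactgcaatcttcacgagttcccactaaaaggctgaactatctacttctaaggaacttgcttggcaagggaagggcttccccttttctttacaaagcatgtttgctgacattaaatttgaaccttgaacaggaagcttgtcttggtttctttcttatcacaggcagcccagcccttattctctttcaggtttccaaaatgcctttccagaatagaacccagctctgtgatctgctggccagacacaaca
Sprr2b: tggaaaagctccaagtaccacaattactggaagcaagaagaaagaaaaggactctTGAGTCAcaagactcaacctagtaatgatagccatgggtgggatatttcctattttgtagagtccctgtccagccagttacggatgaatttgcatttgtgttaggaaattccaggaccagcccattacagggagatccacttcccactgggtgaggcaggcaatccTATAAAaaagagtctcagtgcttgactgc
Sprr2h: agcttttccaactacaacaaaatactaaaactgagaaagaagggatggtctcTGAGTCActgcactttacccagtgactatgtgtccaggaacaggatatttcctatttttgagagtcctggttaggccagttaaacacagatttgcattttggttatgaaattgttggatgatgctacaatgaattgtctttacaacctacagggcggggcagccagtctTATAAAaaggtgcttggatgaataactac
Sprr2d: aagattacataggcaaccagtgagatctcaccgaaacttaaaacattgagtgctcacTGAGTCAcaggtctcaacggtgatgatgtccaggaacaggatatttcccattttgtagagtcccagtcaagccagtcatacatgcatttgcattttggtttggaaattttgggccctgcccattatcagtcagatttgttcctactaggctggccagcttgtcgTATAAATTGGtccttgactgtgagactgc

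An AP-1 match (TGANTCA) was present in 9 of the 12 Sprr windows in the RefSeq table, against 6.75% of all 32851 windows of the same length. Of those 9 genes, 3 were tested (Sprr1a, Sprr2b and Sprr2h) and 6 were above background on no array, Sprr2d among them. A TATA box was present in 10 of the 12, against 12.4% of all windows. Several Sprr2 windows resemble each other: in Sprr2d, Sprr2e and Sprr2i the AP-1 match began 193 bases before the start and the TATA box 29. Such windows are not independent, so the 2 counts cannot be read as separate matches. The Sprr2a2 window held no match, and it was the same as that of Sprr2a1 at 250 of 250 positions, so these 2 genes could not be told apart by it. Compared position by position without alignment, it was the same as the Sprr2a3 window at 66 of 250. Over all members, 48 had a window, and 27 of them (56.2%) held a TATA box, 10 (20.8%) an AP-1 match, 4 (8.33%) a STAT match (7.02% of all windows) and 21 (43.8%) a CCAAT box (33.8% of all windows). A match describes letters in the window and not a bound site. The windows of Krt19 and Krt17 were not in the table.

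Of the desmosomal cadherins, which hold neighbouring cells together, Dsg2 and Dsc2, the pair also known from simple epithelia, and Dsg1c were tested. Dsg2 stood at 1.52 and 0.26 in STAP-2-/- 1 and 2, and at 1.07 and 0.22 in WT 1 and 2. Both pool 1 arrays were above both pool 2 arrays, by 1.06 (SE 0.18, 2.08-fold, unadjusted p = 0.00358, adjusted p = 0.106), and a second probe gave 0.71. Dsc2, its partner, stood at 0.98 and 1.77 in STAP-2-/- 1 and 2, and at 1.37 and 1.59 in WT 1 and 2. It was lower in pool 1 without overlap, by -0.50 (SE 0.17, adjusted p = 0.187), the opposite direction to Dsg2. Dsg1c stood at -3.72 and -3.59 in STAP-2-/- 1 and 2, and at -4.29 and -3.27 in WT 1 and 2, with a pool difference of -0.57 (SE 0.24). The genotype differences of the 3 genes were 0.24 (Dsg2), -0.10 (Dsc2) and 0.13 (Dsg1c), all with overlap.

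Considered over all members, 7 of 41 (17.1%) had genotypes that did not overlap, 2 higher and 5 lower in STAP-2-/- colons, and 24.6% of all tested genes had such genotypes. None of the 41 reached 2-fold without overlap for genotype, against 0.778% of all tested genes. The median genotype difference of the members was 0.04, beside -0.0077 over all genes. For pool, 29 of 41 (70.7%) did not overlap, 22 higher and 7 lower in pool 1, beside 62.5% of all genes. Of the members, 3 (Krt78, Sprr1a and Dsg2) reached 2-fold without overlap, against 5.07% of all genes. The median pool difference was 0.26, beside 0.04. In 34 of 41 members the pool difference had the same sign in both genotypes, as in 12204 of 15817 genes.

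**Figure D3:**
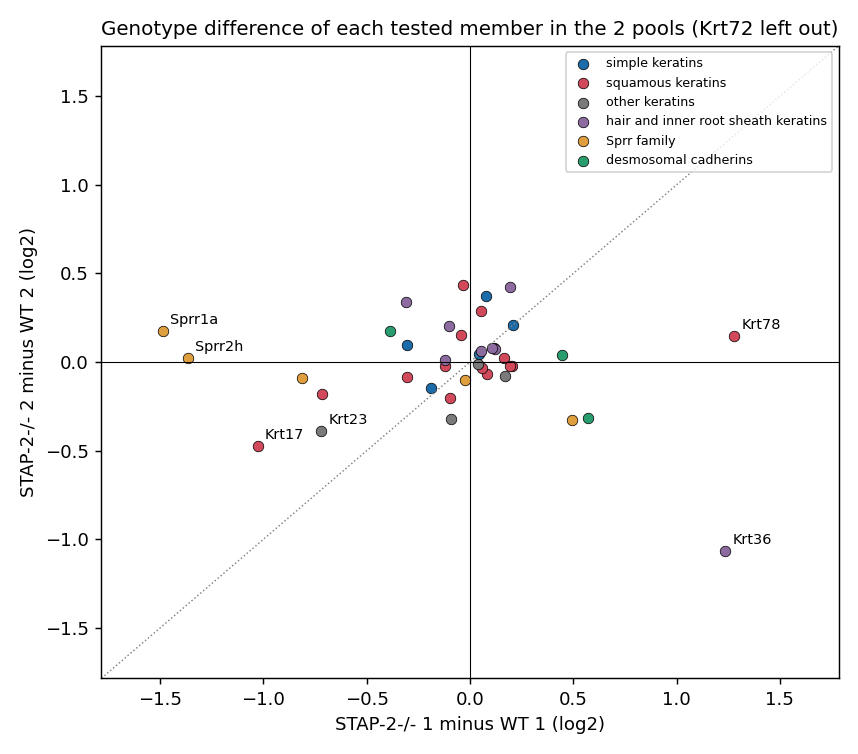
The horizontal axis is STAP-2-/- 1 minus WT 1 and the vertical axis STAP-2-/- 2 minus WT 2 (log2), with 1 point per tested member, coloured by class, and a dotted line of equality. Krt72 is left out. Krt17 and Krt23 lie below 0 on both axes, Sprr1a and Sprr2h lie below 0 on the horizontal axis alone, and Krt36 is at 1.24 and -1.07.

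**Figure D4:**
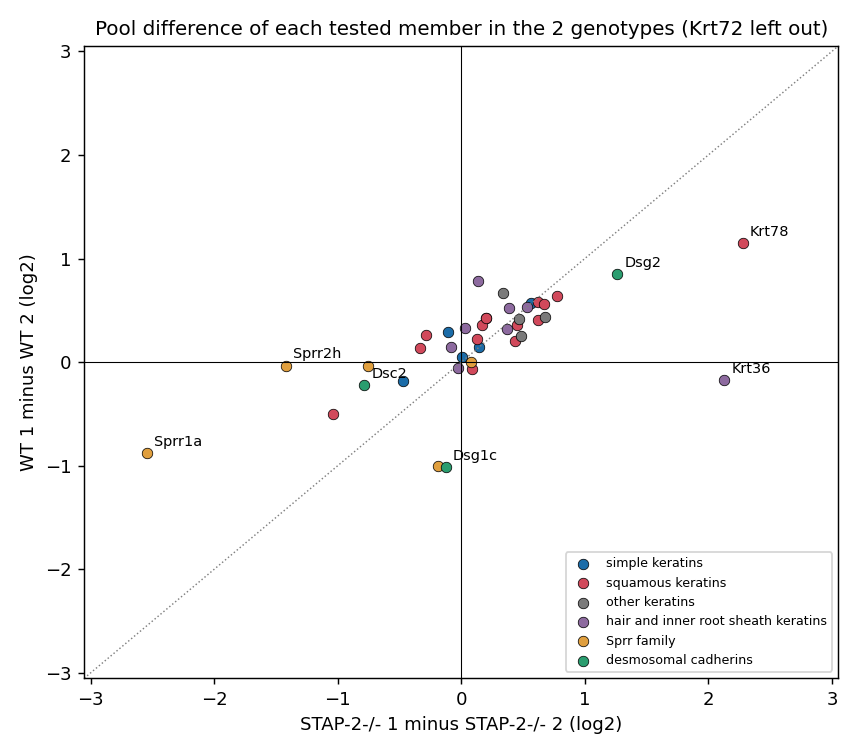
The horizontal axis is STAP-2-/- 1 minus STAP-2-/- 2 and the vertical axis WT 1 minus WT 2 (log2), with the same points and colours and without Krt72. Krt78 (2.28 and 1.15) and Dsg2 (1.26 and 0.85) are higher in pool 1 in both genotypes, Sprr1a (-2.54 and -0.88) is lower in both, and most keratins form a group above 0 on both axes.

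Genes of stratified epithelium that are not in these families were taken from a list of 40, of which 39 had a probe and 30 were tested. None passed the adjusted threshold in either comparison. At the unadjusted threshold 0 of 30 passed for genotype, beside 2.0% of all tested genes, and 11 (36.7%) passed for pool, beside 25.2%, 6 higher and 5 lower in pool 1, and the medians were 0.0047 for genotype and 0.25 for pool. Cst6, a cysteine protease inhibitor of the cornified envelope pathway, stood at -2.39 and -0.79 in STAP-2-/- 1 and 2, and at -2.02 and -1.08 in WT 1 and 2, a pool difference of -1.27 (SE 0.19, adjusted p = 0.0922). Grhl1, a transcription factor of the epidermis, had a pool difference of -0.93 (SE 0.18), and Tgm1, a transglutaminase of the cornified envelope, was above background on the pool 2 arrays alone and at least 1.38-fold lower in pool 1 (adjusted p = 0.129). Anxa8, Evpl (envoplakin), Jup (plakoglobin) and Trp63 had pool differences of 1.48, 1.11, 0.76 and 0.38. Calml3, a calmodulin-like gene of keratinocytes, stood at -5.95 and -6.18 in STAP-2-/- 1 and 2, and at -5.90 and -6.45 in WT 1 and 2. Its genotypes overlapped. WT 1 and WT 2 were not well above background for Calml3, so 1 array of each pool was at background and no pool difference is given. Of the 30 tested genes of the list, 23 were higher and 7 lower in pool 1, beside 8710 higher and 7107 lower among all tested genes. The list therefore held genes in both directions between pools, more of them higher in pool 1.

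Markers of other tissues moved with the pools to differing degrees. All 5 mesothelial markers were tested, with 4 of 5 higher in pool 1 and pools that did not overlap in all 5, as in 62.5% of all tested genes. Their median level was -1.95 and -2.69 in STAP-2-/- 1 and 2, and -2.18 and -2.78 in WT 1 and 2, a median pool difference of 0.71. Skeletal muscle markers had 9 of 12 tested, a median level of -3.41 and -5.01 in STAP-2-/- 1 and 2, and of -3.52 and -4.27 in WT 1 and 2, and a median pool difference of 0.38. The muscle genes Myh1, Myh4 and Mylpf were at background. Of the urothelial markers 2 of 4 were tested, with pools that did not overlap in both, and Upk2 and Upk3a were at background. The 2 tested genes ran in opposite directions, with pool differences of 0.33 (Upk1a) and -0.32 (Upk1b). Their median of 0.0092 therefore does not show that these markers were level. Upk1b is also among the 5 mesothelial markers, as the one that was lower in pool 1. The 11 tested markers of the simple colonic epithelium had a median level of 5.32 and 5.39 in STAP-2-/- 1 and 2, and of 5.49 and 5.45 in WT 1 and 2, with a median pool difference of 0.14 and pools that did not overlap in 11 of 11, 6 higher and 5 lower in pool 1. The part of any of these tissues in the keratin values was not tested.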

How the data were processed

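Expression was measured on 4 Agilent one-colour mouse arrays of 44397 spots, 2 per genotype. Per the file headers, the authors deposited each spot's processed signal intensity, background-subtracted and detrended within the array but not scaled between arrays. The submitters' processing notes name Agilent Feature Extraction 10.7.1.1. The second deposited table gives a ratio of each signal to an array-wide constant (100% of the compared values matched within 1%) and was used only as an alternative.

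Signals were divided by the 75th percentile of the 43020 non-control spots of each array and log2-transformed. Control spots were left out and outlier-flagged spots (129 to 190 per array) were set missing, and no spot was saturated. Replicate spots were averaged per probe. RefSeq accessions named 27427 of 39429 probes, and the probe with the highest mean stood for each of 20832 genes (5494 genes had several). Genes were tested if well above background on at least 2 of 4 arrays. This filter was the same for both comparisons. A fit with limma 3.58.1 in R 4.3.3 (lmFit and eBayes) gave STAP-2-/- minus WT and pool 1 minus pool 2, with Benjamini-Hochberg adjustment over 15817 genes, and the script was tested on simulated data. For a probe at background on both arrays of a group, only a bound on the fold is given, with each of those arrays set to its dimmest signal that was well above background, or to the probe's own signal if that was brighter. The precision is limited by the number of arrays. Tables were made with Python 3.11.15.

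Genes are named by a rule: all simple keratins, and from each other class and from the list of other stratified epithelium genes up to 8 tested genes with the smallest unadjusted p in either fit. Other genes appear in counts, as genes at background, or as class and marker checks. Krt5, Krt10, Krt14, Krt16 and Krt72 were named outside the rule, after their values were seen. The members and all gene lists were chosen with earlier results of these data known. Upstream sequences come from RefSeq on GRCm38.p6. Alternatives were quantile, median and detected-probe scaling, the value table, normexp with an offset of 50 (added after seeing the data, on the median spot signal), other filters, flagged spots kept, the mean of probes, a trend with a robust fit, a replicate block and leaving out each array.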

Additional observations from a re-analysis of the deposited data

Results flagged for a closer look

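In 19 of the 41 tested members (46.3%) STAP-2-/- minus WT had opposite signs in the 2 pools, beside 44.2% of all tested genes. In Krt36 and Krt72 among the members, and in Tgm3 among the other stratified epithelium genes, the difference was at least 2-fold in each pool. For Krt36, STAP-2-/- minus WT was 1.24 within pool 1 and -1.07 within pool 2, a gap of 2.30 on the log2 scale. Its second probe also had STAP-2-/- 1 highest and STAP-2-/- 2 lowest, at -3.54 and -5.35 in STAP-2-/- 1 and 2, and at -4.99 and -4.60 in WT 1 and 2. For Krt72, 1 array of each pair was not well above background, so only bounds hold: STAP-2-/- was at least 3.48-fold lower than WT within pool 1 and at least 6.46-fold higher within pool 2 (the gap of -7.64 between the measured values rests on those background signals). For Tgm3 it was 2.00 within pool 1 and -2.29 within pool 2, a gap of 4.29. With 1 array per genotype and pool, these differences between the pools were not tested.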

How the results depend on the processing

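No member passed an adjusted p under 0.05 in either comparison under any setting that was run (limma). The smallest adjusted p was 0.722 for genotype (Krt17, in the fit with a replicate block) and 0.0668 for pool (Dsg2, with an intensity trend and a robust fit). With genotype and the replicate block in 1 fit, 0 members passed in each comparison. Deviations of same-numbered arrays from their genotype means correlated at 0.63 over 15145 genes, so same-numbered arrays varied together. With 2 arrays per genotype the 2 pairs give 1 value. The labels do not say what the number marks, and it follows the position on the slide. Of 33 named members, 7 kept the sign of the genotype difference and 24 that of the pool difference under all settings. After normexp and quantile scaling the median pool difference was -0.064 for simple and 0.098 for squamous keratins, beside 0.09 and 0.31 in the main fit. With no filter on dim probes it was 0.36 for the Sprr genes and 0.33 for the desmosomal cadherins, since members at background entered. Leaving out 1 array, the median genotype difference of squamous keratins ran between -0.21 (without STAP-2-/- 1) and 0.19, and the median pool differences of Sprr genes between -0.80 and -0.045 (without STAP-2-/- 1) and of simple keratins between -0.058 (without WT 1) and 0.14. The cause of these changes was not tested, except for the filter. Among genes named by single values, 29 of 33 genotype differences and 20 of 33 pool differences changed more than 1.5-fold on leaving out an array. The number of arrays (2 per group) limits every comparison. Signals near background limit the 16 tested members with a mean level below -4. Among these are Krt2, Krt5, Krt6a, Krt15, Krt24, Krt78, Krt80, Krt86, Krt87, Sprr2b, Sprr2h and Sprr4.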

Other observations

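Some hair and inner root sheath keratins were well above background on 1 or 2 arrays only. They are named here after their values were seen. Krt72, a keratin of the inner root sheath, was above background in STAP-2-/- 2 at -3.91 and in WT 1 at -4.59, and stood at -8.04 in STAP-2-/- 1 and -8.10 in WT 2. Krt40 was above background in WT 2 alone, at -4.97, beside -8.64 and -8.27 in STAP-2-/- 1 and 2 and -8.46 in WT 1. Its second probe was above background on no array and stood at -8.78 in WT 2. Krt28 was above background in STAP-2-/- 1 alone, at -5.95, and its second probe was above background on no array.

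Tgm3, a transglutaminase of the hair follicle and cornified envelope, had the values farthest apart among the tested stratified epithelium genes outside the 3 families, and it was picked after its values were seen. It stood at 4.05 and -0.95 in STAP-2-/- 1 and 2, and at 2.05 and 1.35 in WT 1 and 2. Its pool difference was 2.85 (SE 1.05, limma adjusted p = 0.198) and its genotype difference -0.15 (SE 1.83, adjusted p = 1.0).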
